A study of Mus musculus with 3 samples.

Results

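The 31 genes described here are transcripts that cells make in response to type I interferons, and they were taken by gene symbol from the 31062 genes and transgenes of the expression matrix. All 31 were found. The cells came from the brains of female C57Bl/6 mice, 2 to 3 months old, that carried tumours seeded by carotid injection of E0771 cells, a line from a mouse mammary carcinoma. Some of the mice had received anti-VISTA and anti-PD-L1 antibodies every other day from day 3 after injection and the others had not. Suspensions enriched for immune cells on a Percoll gradient were marked with 8 hashtag antibodies, pooled in 1 capture and measured by CITE-seq, which counts transcripts and antibody tags in the same cell. Which hashtags marked treated brains is not identified here, so treated and untreated brains are mixed throughout, and all comparisons are between cell classes of the same hashtag samples. The labels do not tie a hashtag to 1 animal, and the p-values below therefore reflect the spread between hashtag samples only.

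Type I interferons (Ifnb1 and the Ifna family) bind the receptor chains Ifnar1 and Ifnar2, and the kinases Jak1 and Tyk2 then activate a transcription factor complex that includes Stat2 and Irf9. This complex binds the interferon-stimulated response element in promoters. In the brain, microglia, infiltrating myeloid cells and endothelium are known to carry this response, and its products block viral RNA and proteins, present danger signals or limit the response itself.

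The core of that element, GAAA followed by any 2 bases and GAAA, searched on both strands with overlaps allowed, was looked for in the 250 bases before the start of each gene in RefSeq's promoters (GRCm38.p6). The promoter table listed 22 of the 31 members, and 10 of these 22 (45.5%) held the core, against 3.46% of all 27025 genes listed. The 10 were Ifit1, Ifit3, Isg15, Rsad2, Oas1a, Oas3, Stat2, Bst2, Trim30a and Slfn5. Mx1, Oas2, Ifi27l2a, Usp18, Zbp1, Ifi204, Parp14, Dhx58 and Rtp4 were not listed. The 200 bases before the start are shown for 5 members whose levels set the classes apart below, with every match to the core in capitals, in the direction of transcription.
Ifit1: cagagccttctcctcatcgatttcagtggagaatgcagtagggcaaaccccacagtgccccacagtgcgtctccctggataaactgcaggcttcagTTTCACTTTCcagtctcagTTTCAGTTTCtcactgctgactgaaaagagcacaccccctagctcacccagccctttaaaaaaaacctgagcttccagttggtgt
Ifit3: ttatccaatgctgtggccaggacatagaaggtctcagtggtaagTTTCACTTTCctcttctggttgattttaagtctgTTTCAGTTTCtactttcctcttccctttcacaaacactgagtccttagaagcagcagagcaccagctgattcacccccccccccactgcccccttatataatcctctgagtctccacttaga
Isg15: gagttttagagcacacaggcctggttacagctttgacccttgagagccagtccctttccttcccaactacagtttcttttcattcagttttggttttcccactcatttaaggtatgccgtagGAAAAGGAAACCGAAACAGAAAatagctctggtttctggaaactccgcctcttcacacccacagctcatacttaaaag
Rsad2: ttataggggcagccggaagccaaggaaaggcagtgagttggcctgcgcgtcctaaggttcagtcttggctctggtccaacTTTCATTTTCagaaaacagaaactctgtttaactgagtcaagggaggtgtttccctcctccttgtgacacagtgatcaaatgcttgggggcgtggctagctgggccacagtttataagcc
Bst2: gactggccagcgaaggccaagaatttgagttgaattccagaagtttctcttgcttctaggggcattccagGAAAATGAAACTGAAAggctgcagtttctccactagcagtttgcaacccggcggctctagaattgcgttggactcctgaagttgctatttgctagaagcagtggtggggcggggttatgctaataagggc
These windows lie at chr19:34640689-34640888 (Ifit1) and chr19:34583329-34583528 (Ifit3) on the plus strand. The start of Ifit3 used by the promoter table lies inside the gene as RefSeq's gene table places it, which begins at 34583119. On the minus strand they lie at chr4:156200819-156201018 (Isg15), chr12:26456453-26456652 (Rsad2) and chr8:71537473-71537672 (Bst2). Ifit1 and Ifit3 each held 2 separate cores, Isg15 3 overlapping ones, Bst2 2 overlapping ones and Rsad2 1.

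Of 12908 barcodes, 9896 passed the quality filters and carried 1 hashtag, and 8285 of these were placed in a class by their own marker UMIs (unique transcript molecules). The hashtag samples held 100 to 2316 such singlets and 4898693 to 125193153 UMIs. Main classes were 383 microglia, 585 inflammatory monocytes, 644 macrophages, 928 T cells, 428 NK cells, 446 endothelial cells and 4534 Krt8+ cells. All markers of the first 6 classes were detected in at least 10% of their cells. Their gates needed 2 to 4 of these markers per cell, against 1 for the carcinoma gate, so this is no separate check of identity. The gate meant for carcinoma cells required at least 2 UMIs of Krt8, an epithelial keratin. It also required under 0.5 UMIs of the leukocyte gene Ptprc per 10000. Only 1 of its 9 markers, the required Krt8, reached 10% of its cells, so these cells are called Krt8+ cells here. They carried the mCherry transgene at a median of 3.06 CPM (UMI counts scaled to the library total) and 2.27 to 6.52 CPM over 8 samples, against medians of 0 in the 6 other main classes. Krt8+ cells held a median of 84486 UMIs each, against 4217 to 13600 in the other main classes. Hashtag doublets made up 2.71 to 18.2% of the barcodes gated into the main classes, and were left out.

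Levels below are CPM of UMIs summed over the cells of a class in a hashtag sample with at least 20 such cells. A UMI from the 3′ end stands for 1 molecule, so levels were not divided by gene length. Summed over all 31 members, the highest median among the main classes, 15318 CPM, belonged to inflammatory monocytes (11854 to 17100 CPM, 6 hashtag samples). Macrophages had 10267 CPM (8684 to 11381 over 6) and T cells 8062 CPM (7384 to 10644 over 6). Microglia had 4289, 4433, 3473 and 6381 CPM in samples 5, 6, 7 and 8. Monocytes stood above macrophages in 6 of 6 shared samples and T cells above microglia in 4 of 4, with no overlap of the ranges in either case. Without Ifi27l2a and Bst2 the gap between T cells and microglia narrowed and their ranges overlapped, as given below.
Endothelial cells followed with 3794 CPM (2256 to 5091 over 7) and NK cells with 3012 CPM (2451 to 5058 over 6). Krt8+ cells had the lowest level, 2028 CPM (1637 to 2521 over 8). Each of the other neighbours in this order overlapped: macrophages were above T cells in 4 of 6 samples, microglia above endothelial cells in 3 of 4, endothelial cells above NK cells in 4 of 6, and NK cells above Krt8+ cells in 5 of 6.

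**Figure D1:**
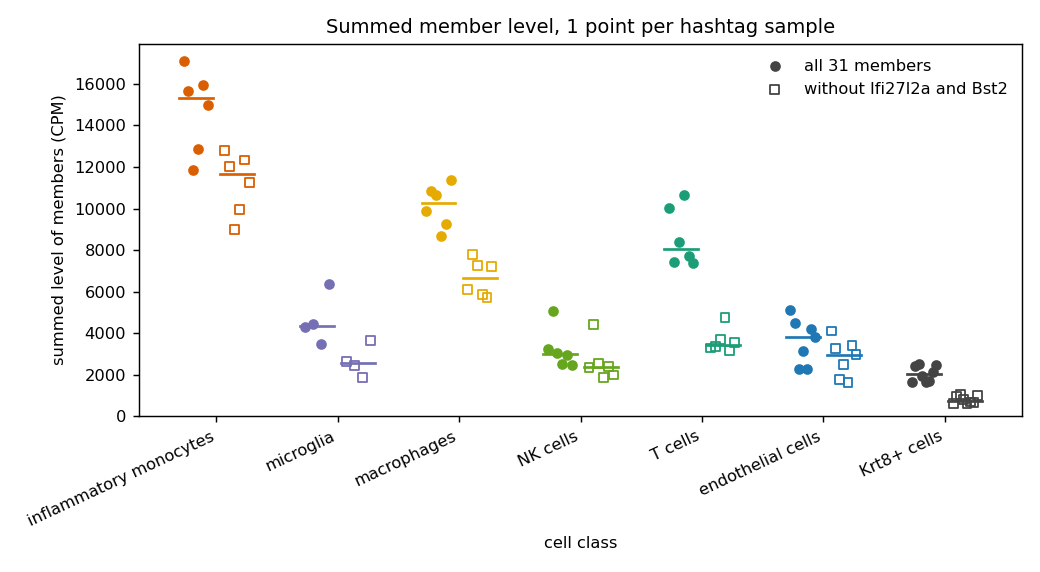
Summed level of the members in CPM (y axis) for each main class (x axis), 1 point per hashtag sample with at least 20 cells, filled for all 31 members and open without Ifi27l2a and Bst2. Horizontal lines are medians, such as 8062 CPM for T cells with all members against 3452 CPM without those 2 genes.

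Smaller classes reached 20 cells in hashtag sample 5 only, with 23 neutrophils and 20 plasmacytoid, 33 mature and 27 conventional dendritic cells. There the summed level was 13366 CPM in neutrophils, 10676 CPM in plasmacytoid dendritic cells, 10182 CPM in mature dendritic cells and 5165 CPM in conventional dendritic cells, with no replicate. Plasmacytoid dendritic cells had 5244 CPM of Bst2, a tetherin that holds virus particles at the cell surface and a surface marker of this cell type in the mouse. Neutrophils had 1292 CPM of Ifit1 and 3173 CPM of Isg15 and were listed at 0 for Mx1. They held a median of 2800 UMIs each, so a 0 there says little.

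Ifi27l2a, an interferon-induced mitochondrial protein gene, made up a share of the sum that differed widely between classes. It had a median of 3919 CPM in T cells (3097 to 5968), which was 46.8% of their summed level. Levels in the myeloid cells were 2773 CPM in monocytes (2149 to 3322), 2285 CPM in macrophages (1610 to 2788) and 1057 CPM in microglia (970 to 1663). In NK cells it was 152 CPM (41.7 to 367), in endothelial cells 81.4 CPM (60.9 to 186) and in Krt8+ cells 26.3 CPM (18.1 to 45.4). The T cell range lay above those of NK, endothelial and Krt8+ cells without overlap, and within T cells the level was not even. Conventional CD4 T cells had 6115, 7084 and 5371 CPM in samples 5, 7 and 8, against 3035, 3115 and 2327 CPM in CD8 T cells of the same samples. Foxp3+ T cells, regulatory cells, had 4733 and 6140 CPM in samples 5 and 8. The difference between CD4 and CD8 T cells was not confined to Ifi27l2a. Without it and Bst2, the members summed to 5165, 6718 and 5521 CPM in conventional CD4 T cells of samples 5, 7 and 8. In CD8 T cells of these samples they summed to 2993, 2560.5 and 3031 CPM.

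Bst2 made up 58.7% of the summed level of Krt8+ cells (57.1 to 67.6%). It reached a median of 1267 CPM there (987 to 1443), 1291 CPM in macrophages (1141 to 1462), 791 CPM in microglia (598 to 1063), 767 CPM in T cells (653 to 935) and 750 CPM in monocytes (574 to 1043). Endothelial cells had 639 CPM (402 to 1154) and NK cells 419 CPM (328 to 598). Without Ifi27l2a and Bst2 the other 29 members summed to 11644 CPM in monocytes, 6656 CPM in macrophages, 3452 CPM in T cells, 2951 CPM in endothelial cells, 2543 CPM in microglia, 2366 CPM in NK cells and 737 CPM in Krt8+ cells. In the 4 samples with both, the 29 members summed to 2470, 1640, 3399 and 2951 CPM in endothelial cells and to 2632, 2453, 1845 and 3655 CPM in microglia (samples 5, 6, 7 and 8), so endothelial cells were above microglia in sample 7 only. T cells then overlapped microglia, with 3703, 4760, 3182 and 3562 CPM in samples 5, 6, 7 and 8. They stayed above microglia in samples 5, 6 and 7 and were below them in sample 8.

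Isg15, a ubiquitin-like protein that is joined to other proteins, had medians of 2233 CPM in monocytes (1825 to 2779), 1330 CPM in macrophages (996 to 1619), 677 CPM in T cells (571 to 851) and 422 CPM in endothelial cells (288 to 866). Lower medians were found in microglia at 345 CPM, NK cells at 297 CPM and Krt8+ cells at 175 CPM (113 to 236). Irf7, the factor that amplifies interferon genes, had near-equal medians of 740 CPM in monocytes (588 to 1058) and 738 CPM in macrophages (541 to 1005), against 36.8 CPM in Krt8+ cells (23.1 to 51.3). Eif2ak2, the RNA-activated kinase PKR, varied less, from 47.5 CPM in Krt8+ cells (43.7 to 60.6) to 125 CPM in monocytes (86.9 to 130). Ifi35, which binds other interferon-induced proteins, was also narrow, from 77.0 CPM in Krt8+ cells (57.5 to 96.7) to 204 CPM in monocytes (182 to 221).

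Some members, of which Mx1, Oas3 and Ifi44 were picked after their values were seen, were close to absent in some classes. Ifi204, a DNA-binding protein of the Ifi200 family, had 1056 CPM in monocytes (889 to 1075) and 529 CPM in macrophages (409 to 560), against 21.2 CPM in endothelial cells (2.69 to 55.3) and 4.02 CPM in Krt8+ cells (1.86 to 8.07). Slfn5, a Schlafen family gene, had 864 CPM in monocytes (777 to 966), 370 CPM in macrophages (310 to 452) and 280 CPM in endothelial cells (182 to 406), against 6.56 CPM in Krt8+ cells (4.88 to 8.59). Mx1, an antiviral GTPase whose gene is known to be defective in C57BL/6 mice, had 2.69 CPM in endothelial cells (0 to 21.5) and 2.13 CPM in Krt8+ cells (1.73 to 2.58), against 183 CPM in monocytes (152 to 228).
Oas3, a synthase that activates RNA decay, had 1.28 CPM in endothelial cells (0 to 5.72), below the 15.1 CPM of Krt8+ cells (12.02 to 21.9). Ifi44, an interferon-induced gene of unclear function, went the other way: its median of 106 CPM in endothelial cells (49.0 to 191) stood above 20.3 CPM in monocytes (8.48 to 35.5), without overlap. Transcripts that mark other classes were also found at low levels: Krt8 had medians of 8.58 to 11.7 CPM outside Krt8+ cells, where it had 380 CPM. In Krt8+ cells the myeloid gene Lyz2 had 13.8 CPM, against 16101 CPM in monocytes, and C1qb had 6.98 CPM, against 7722 CPM in microglia. The part of free RNA in low member levels was not tested.

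**Figure D2:**
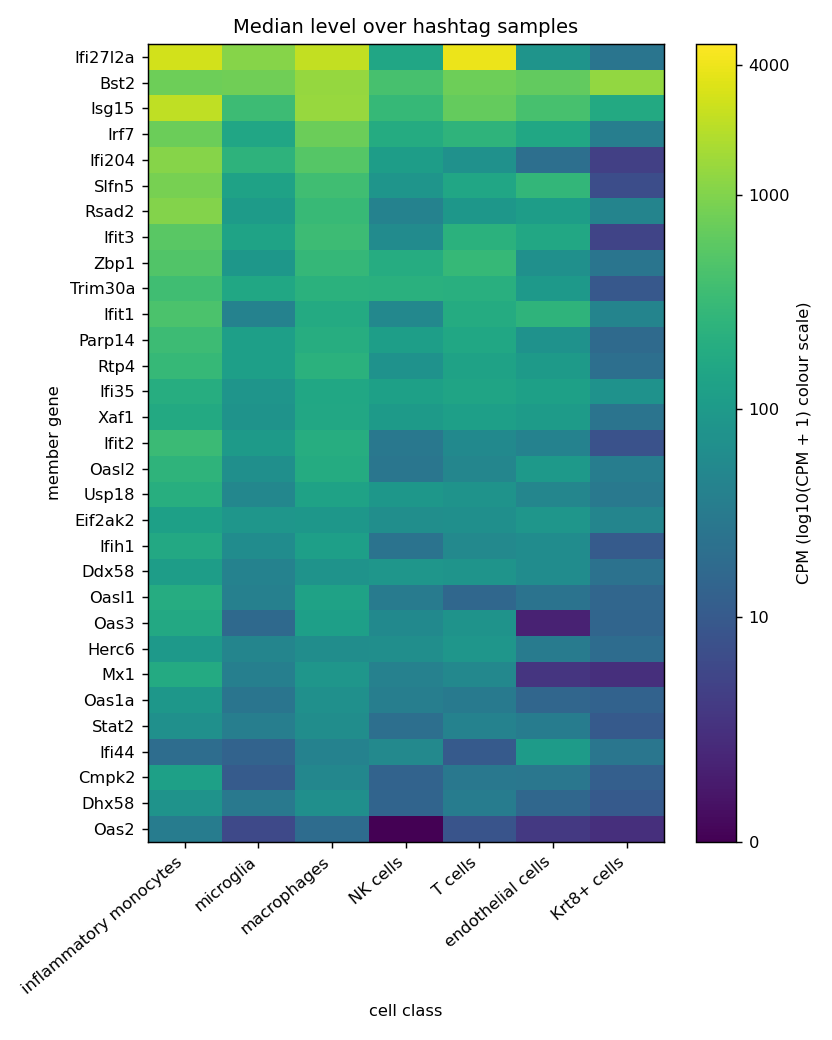
Median level over hashtag samples of each of the 31 members (rows, ordered by their mean) in each main class (columns), coloured on a log10(CPM + 1) scale. Ifi27l2a is brightest in T cells (3919 CPM), Bst2 is the brightest row of the Krt8+ cells (1267 CPM), and Oas3 is dark in endothelial cells (1.28 CPM).

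The balance between members was also compared as a ratio of their UMIs within each hashtag sample. A ratio leaves out the overall height of the response only where both members rise and fall alike. These pairs were chosen after the levels had been seen, so no test was run. Ifit1 and Ifit3 are neighbouring genes of the family whose proteins bind foreign RNA. Krt8+ cells had a median of 7.49 Ifit1 UMIs per Ifit3 UMI (5.67 to 10.7 over 8 samples, 18141 against 2508 UMIs in all). The ratio was 1.45 in endothelial cells (1 to 1.71), 0.792 in monocytes (0.644 to 0.982), 0.778 in T cells (0.618 to 1.07), 0.593 in macrophages (0.296 to 0.803) and 0.345 in microglia (0.291 to 0.429). No sample of another main class overlapped the Krt8+ range. Ifit3 shares sequence with its copy Ifit3b, so reads may be split between them, and the level of Ifit3b in Krt8+ cells was 1.13 CPM (0.23 to 1.55), against 98.6 CPM in macrophages (55.4 to 121).
Bst2 per Isg15 UMI likewise stood apart in Krt8+ cells, at 6.98 (5.75 to 11.4), against 0.343 in monocytes (0.3 to 0.379) and 2.19 in microglia (1.63 to 2.86). Isg15 itself had its lowest median in Krt8+ cells, 175 CPM, and its highest in monocytes, 2233 CPM. This ratio is therefore not free of the height of the response. Ifi27l2a per Isg15 UMI was 5.96 in T cells (4.4 to 7.53), against 0.651 in NK cells (0.055 to 1) and 0.161 in Krt8+ cells (0.123 to 0.221). The other pair, Rsad2 per Cmpk2 UMI, adjacent genes that are induced together, moved less: medians ran from 3 in endothelial cells (2.2 to 3.93) to 8.6 in microglia (4.18 to 16.2), with 7.72 in monocytes (7.33 to 8.44) and 3.88 in Krt8+ cells (2.36 to 5.64).

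**Figure D3:**
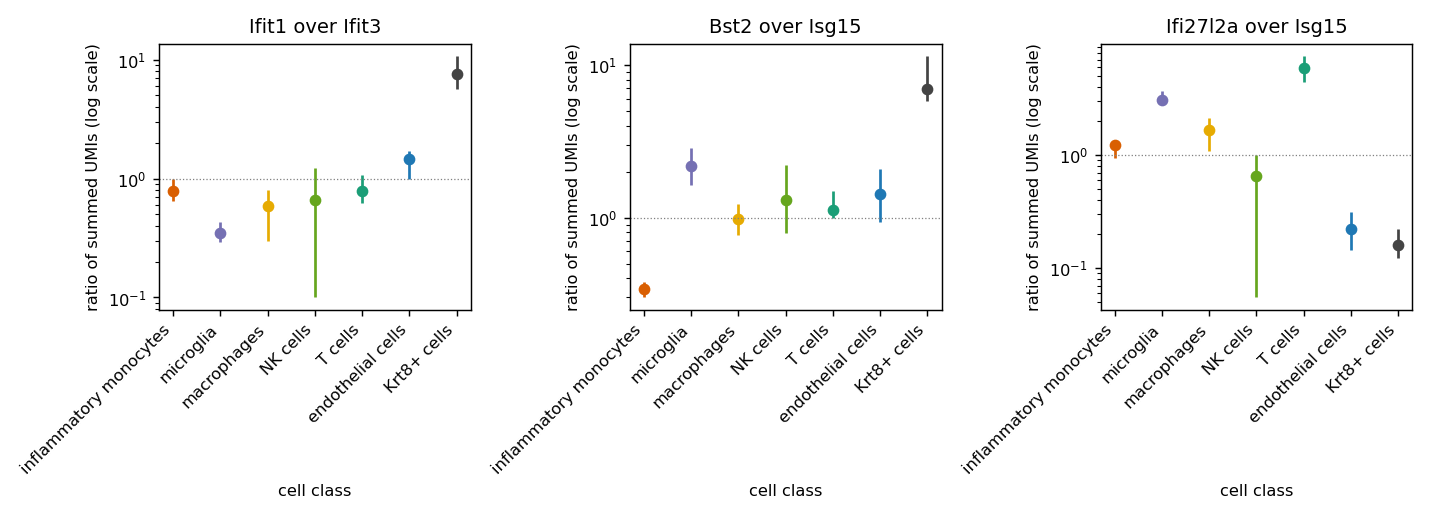
Ratio of summed UMIs of 3 member pairs (y axis, log scale) in each main class (x axis), with the median over hashtag samples as a point and the lowest to highest sample as a line. Krt8+ cells stand apart for Ifit1 over Ifit3 (median 7.49) and Bst2 over Isg15 (6.98), and T cells for Ifi27l2a over Isg15 (5.96).

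The share of responding cells was taken after each cell had been thinned at random to 2000 UMIs, since classes differ in depth, and a cell counted as responding with a UMI of at least 3 of the 31 members. In macrophages a median of 94.8% of cells responded, from 93.4% (95% exact binomial interval 85.3 to 97.8%) in sample 3 to 100% (95 to 100%) in sample 7. Monocytes had 93.8%, from 80% (68.2 to 88.9%) in sample 6 to 98.2% (90.6 to 100%) in sample 7. T cells had 79.1% (71.4 to 84.8%), endothelial cells 75.8% (64.9 to 83.3%) and NK cells 50.5% (43.6 to 68.2%). The 95% intervals cover counting error only, and the ranges given for T, endothelial and NK cells are over hashtag samples.
Microglia had 46.6, 66, 42.3 and 76.4% in samples 5, 6, 7 and 8. Krt8+ cells had the lowest share, 27.2%, from 16% (7.17 to 29.1%) in sample 1 to 38.9% (34.5 to 43.4%) in sample 8, and did not overlap any other main class. At their own depth the share was 99.4% in Krt8+ cells and 86.7% in microglia, an order opposite to that of the CPM, so no order was read from it. In Krt8+ cells, 46.7% of thinned cells had no UMI of the 29 members other than Ifi27l2a and Bst2, against 2.07% of macrophages and 3.13% of monocytes.

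**Figure D4:**
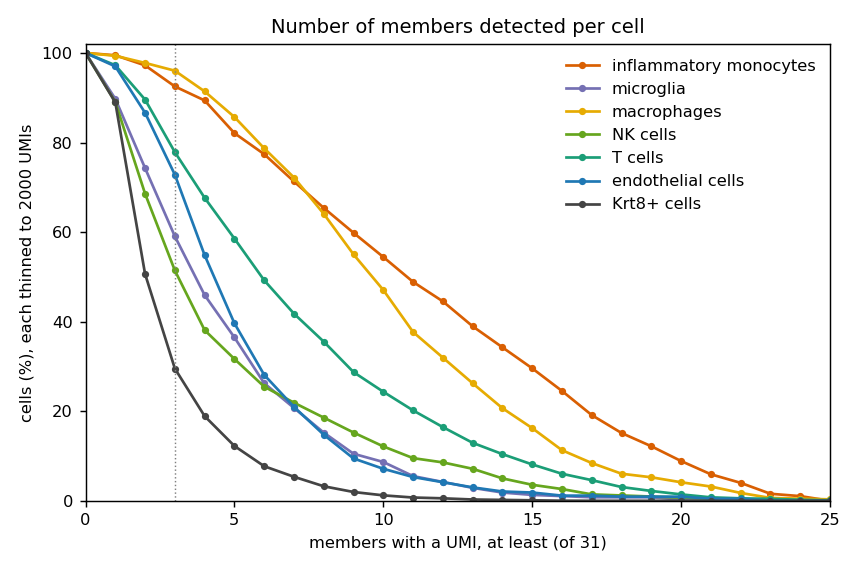
Percent of cells, each thinned to 2000 UMIs (y axis), that had a UMI of at least the number of members on the x axis, 1 line per main class, with the threshold of 3 members dotted. At 10 members monocytes and macrophages are highest and Krt8+ cells lowest, and from 25 members on every class is near 0.

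A response in at least 10 members at once was seen in a median of 55.2% of monocytes (44.2 to 65%) and 46.7% of macrophages (30.3 to 52%). The share was 22.5% in T cells (18.2 to 31.1%), 12.5% in NK cells (7.69 to 27.3%), 6.4% in endothelial cells (3.03 to 25%) and 0.97% in Krt8+ cells (0 to 2.27%). In microglia it was 6.80, 6.80, 5.13 and 14.5% in samples 5 to 8. At 3 members and 2000 UMIs, endothelial cells thus had a share of responding cells near that of T cells. With at least 5 members it was 36.2% against 57.4%, and at 1000 UMIs 41.6% against 58.6%. The share with at least 10 members was lower in endothelial cells by median, but in sample 2 it was 25% against 18.2%. These differences were not tested.
The top 10% of Krt8+ cells held 52.9% of the molecules of the 29 members (47.1 to 60.3% over samples), the highest share among the main classes. In microglia the top 10% held 46.2%, in NK cells 45.7%, in T cells 39.3%, in endothelial cells 38%, in macrophages 33.3% and in monocytes 31.9%. A Krt8+ cell held a median of 1 such UMI in 2000 and a monocyte 15, and the highest cells held 42 and 116. Medians were 10 in macrophages, 5 in T cells, 4 in endothelial cells and 2 in microglia and NK cells. Apart from the order of T and endothelial cells, the share of the top 10% was higher where this median was lower. Evenness between cells therefore cannot be told apart from the level here.

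Members correlated positively from cell to cell in each of the 7 main classes. The median Spearman correlation over pairs of members detected in at least 10% of thinned cells was 0.225 in NK cells (0.16 to 0.23 over 3 samples with 50 cells), 0.21 in T cells (0.174 to 0.234 over 4) and 0.196 in monocytes (0.172 to 0.259 over 6). Macrophages had 0.168 (0.114 to 0.197 over 5), microglia 0.159 (0.138 to 0.193 over 4), Krt8+ cells 0.153 (0.0574 to 0.206 over 7) and endothelial cells 0.0961 (0.0547 to 0.117 over 4). Over all detected genes the same median lay between -0.00436 and 0.000115. These points share libraries and depth, and cells are not replicates, so the values are a description.
Ifit3 with Rsad2, whose product viperin blocks viral replication, was the closest pair in monocytes, at 0.66 (0.545 to 0.763). In macrophages it was Isg15 with Rsad2 at 0.521, in T cells Ifit1 with Ifit3 at 0.534, in NK cells Isg15 with Ifi204 at 0.547, and in endothelial cells Ifit1 with Oasl2 at 0.298. In microglia it was Ifi27l2a with Bst2 at 0.415 (0.304 to 0.495), and with Pearson's correlation on log values Isg15 with Slfn5 led there at 0.453. Leading pairs changed with the setting in other classes too. Only 3 to 5 members reached 10% of thinned Krt8+ cells. At full depth, where 30 or 31 did, their median correlation was 0.387 (0.351 to 0.462), against 0.021 for the genes set beside them, and Isg15 with Oasl2 led at 0.754.

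Transcripts of the interferons were rare. Of 21 ligand genes, 13 had no UMI in any gated singlet, and the Ifna genes together had 11 UMIs. Ifnb1, the interferon made early by many cells, had medians of 8.71 CPM in monocytes (2.59 to 19.8), 4.11 CPM in macrophages (2.46 to 20.2), 0.0237 CPM in Krt8+ cells (0 to 0.585) and 0 CPM in endothelial and NK cells. It was found in 5.30% of monocytes, 5.75% of macrophages, 4.18% of microglia and 0.353% of Krt8+ cells. The highest microglial cell held 21 of 44 UMIs and the highest Krt8+ cell 27 of 71, while the highest monocyte held 6 of 60 and the highest macrophage 7 of 83.
Member UMIs were counted here over the 29 members other than Ifi27l2a and Bst2. Microglia with an Ifnb1 UMI had a median of 6 member UMIs in 2000 (16 cells), against 2 in microglia without one. Krt8+ cells with an Ifnb1 UMI had 4 (16 cells), against 1. In monocytes the medians were 16 and 15, and in macrophages 13.5 and 10. Microglia and macrophages with an Ifnb1 UMI were also deeper, with 18393 and 19417 UMIs per cell, against 7828 and 13578 UMIs without, and no test was run. Ifng, the type II interferon, was found in T cells at 141 CPM (16.5 to 403) and in NK cells at 160 CPM (37.6 to 397), and was near 0 elsewhere.

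The receptor chain Ifnar1 had its lowest median in Krt8+ cells, 15.3 CPM (14.1 to 17.9), against 107 CPM in T cells (72.0 to 119), 106 CPM in endothelial cells (80.7 to 126), 80.5 CPM in macrophages (64.2 to 93.6) and 41.4 CPM in microglia (37.1 to 45.9). Ifnar2 ran from 19.5 CPM in Krt8+ cells (17.2 to 22.6) through 45.4 CPM in T cells (38.4 to 53.7) to 142 CPM in macrophages (124 to 200). Irf9 had 16.4 CPM in Krt8+ cells (9.55 to 20.8) and medians of 52.1 to 68.2 CPM in the other main classes. For each of these 3 genes the Krt8+ range lay below that of every other main class.

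Classes were next compared within hashtag samples by edgeR's quasi-likelihood test on summed counts, over all genes, with Benjamini-Hochberg adjustment at 0.05. The comparisons over Krt8+ cells share the same Krt8+ samples, and those over macrophages the same macrophages. In macrophages against Krt8+ cells, all 31 members were higher in macrophages, where 35.5% of the 12024 genes tested were called higher and 78.9% in either direction. Values of Krt8+ cells here are from the shared samples. The median log2 fold change of the members was 3.30, against -0.165 for all genes. Ifi204 had 409, 529 and 560 CPM (lowest, median, highest) in macrophages, against 3.42, 4.95 and 8.07 CPM in Krt8+ cells, a log2 fold change of 6.92 ± 0.24 (SE, adjusted p = 2.32e-07). Ifi27l2a had a change of 6.6 ± 0.25 (adjusted p = 1.14e-06), Slfn5 6.10 ± 0.12 (3.42e-18) and Ifit3 6.10 ± 0.27 (2.53e-06), each higher in 6 of 6 samples without overlap.
At the other end stood Bst2, with 1141, 1291 and 1462 CPM in macrophages, against 1002, 1433 and 1443 CPM in Krt8+ cells. It was higher in macrophages in 3 of 6 samples, and its change of 0.30 ± 0.07 (adjusted p = 0.000593) came with TMM scaling, against 0.01 (adjusted p = 0.901) when only library size was used. Ifi44 was higher in macrophages in 4 of 6 samples, with ranges that overlapped (0.84 ± 0.30, adjusted p = 0.0425). With library size only, 29 members passed, where 81.9% of genes were called. Among genes of the pathway, 8 of 8 tested receptors and kinases, 8 of 8 transcription factors and 27 of 27 further interferon-stimulated genes were higher in macrophages. Slfn1, with 245 against 0.52 CPM (log2 change 9.18), and Ifit1bl1, with 61.6 against 0.23 CPM (8.62), changed most among the further genes, and the sensors Tlr9 (8.51) and Tlr7 (8.10) among 8 sensors, of which 7 passed. Irf9 (2.33), Ifnar1 (2.70), Ifnar2 (3.22), Il10rb, Ifngr1, Irf5, Cxcl9 and Ciita were higher in macrophages as well. Ifnb1 was higher by 5.87 ± 1.13 (adjusted p = 0.00356). The negative regulators Samhd1 (3.42) and Socs3 (3.17) were higher too, as were all 6 tested.

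In endothelial cells against Krt8+ cells, 27 members were higher in endothelial cells, 2 were lower and 2 did not pass, while 34.5% of the 11934 genes tested were called higher, 38% lower and 72.4% in all. The median change of the members was 1.41, against -0.0706 for all genes. Slfn5 had 182, 280 and 406 CPM in endothelial cells, against 4.88, 6.92 and 8.59 CPM in Krt8+ cells, a log2 change of 5.30 ± 0.14 (adjusted p = 1.45e-17). Ifit3 was higher by 4.54 ± 0.23, Trim30a, a gene of the tripartite motif family, by 2.97 ± 0.19 and Ifih1, the RNA sensor MDA5, by 2.50 ± 0.15, each in 7 of 7 samples without overlap.
Oas3 was lower in endothelial cells, with 0, 1.28 and 5.72 CPM, against 12.02, 16.0 and 21.9 CPM in Krt8+ cells, a change of -3.19 ± 0.34 (adjusted p = 1.01e-09). Bst2 was lower by -1.01 ± 0.10 (adjusted p = 1.09e-08), in 7 of 7 samples with ranges that overlapped across samples. Mx1 (0.93 ± 0.49, adjusted p = 0.0964) and Oas1a (-0.02 ± 0.18, adjusted p = 0.963) did not pass. Irf9 (1.97), Ifnar1 (2.64) and Ifnar2 (2.25) were higher in endothelial cells in 7 of 7 samples. Of 6 sensors tested outside the members, 2 were higher, led by Tlr3 (5.98), and 2 were lower, Aim2 (-1.72) and Mavs (-0.72).
Among 25 further interferon-stimulated genes, 21 were higher, led by Gvin1 (7.73) and Ifit3b (5.69), and 3 lower, including Oas1g (-1.38) and Slfn8 (-1.35). Socs1, a brake on the kinases, was lower in endothelial cells (-1.11 ± 0.23, adjusted p = 0.000126), with 15.4 CPM against 24.1 CPM in Krt8+ cells. Il10rb (2.91), Jak2 (2.84), Tmem173 (0.71), Socs3 (1.62) and Trim21 (0.99) were higher, and so were Cxcl9 (5.80) and Iigp1 (5.04), which respond mainly to interferon gamma.

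In T cells against Krt8+ cells, 28 members were higher in T cells, 2 lower and 1 did not pass (30.3% of 11805 genes called higher, 45.4% lower and 75.7% in all, median change of members 2.33 against -0.296 for all genes). Ifi27l2a had 3097, 3919 and 5968 CPM in T cells, against 18.1, 26.3 and 45.4 CPM in Krt8+ cells, a change of 7.29 ± 0.26 (adjusted p = 1.39e-06). Ifit3 (5.48 ± 0.40), Mx1 (4.91 ± 0.21) and Slfn5 (4.65 ± 0.14) followed, each in 6 of 6 samples without overlap. Bst2 had 653, 767 and 935 CPM in T cells, against 1002, 1433 and 1443 CPM in Krt8+ cells, with no overlap and a change of -0.67 ± 0.15 (adjusted p = 0.00483, and 0.0516 when at least 50 cells were required).
Ifi44 was lower in T cells in 6 of 6 samples, with 0, 10.3 and 27.4 CPM, against 20.9, 33.4 and 40.8 CPM in Krt8+ cells (-1.17 ± 0.29, adjusted p = 0.00251). Oasl1 (0.44 ± 0.22, adjusted p = 0.0745) did not pass. Markers of monocytes summed to 141 to 427 CPM in T cells, highest in sample 3, with 8 of 8 above 0, against 5306 to 13647 CPM in monocytes. Markers of macrophages summed to 190 to 610 CPM in T cells, also highest in sample 3, against 17856 to 28685 CPM in macrophages. The part of these myeloid transcripts in the members and pathway genes called was not tested. With sample 3 left out 31 members passed, 29 higher and 2 lower, where 74% of 11952 genes were called. Irf9 (2.00), Ifnar1 (2.88) and Ifnar2 (1.25) were higher in T cells. Of 26 further genes, 23 were higher, led by Slfn1 (8.96) and Ifi203 (8.27), and 2 lower, Parp12 (-1.22) and Ifitm3 (-0.70).
Ifng (9.54), Ifngr1 (5.38), Jak2 (3.55), Irf5 (2.93), Tlr7 (4.72), Tmem173 (1.45), Samhd1 (3.25), Trim21 (2.73), Cxcl9 (3.66) and Gbp5 (3.34) were higher in T cells, and Mavs (-0.91) was lower.

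Inflammatory monocytes were called higher than macrophages in 29 members and lower in 2. Of 7579 genes, 23.7% were called higher, 23% lower and 46.7% in all. The median change of the members was 0.735, against -0.0304 for all genes. Irf7 (0.25), Oas1a (0.47) and Stat2 (0.34) were among the 29 but higher in 4 of 6 samples only. With library size in place of TMM, 25 members were higher and 2 lower, where 51.5% of genes were called. Rsad2 had 716, 1018 and 1487 CPM in monocytes, against 256, 311 and 626 CPM in macrophages, a change of 1.72 ± 0.34 (adjusted p = 0.0103). Its neighbour Cmpk2, a mitochondrial nucleotide kinase, was higher by 1.46 ± 0.28 (adjusted p = 0.00718), Ifit1 by 1.42 ± 0.29 (0.0112) and Slfn5 by 1.38 ± 0.08 (2.19e-13), in 6 of 6 samples without overlap.
Bst2 went the other way, with 574, 750 and 1043 CPM in monocytes, against 1141, 1291 and 1462 CPM in macrophages (-0.56 ± 0.07, adjusted p = 3.39e-07). Ifi44 was lower in monocytes by -0.97 ± 0.26 (adjusted p = 0.00818). With cells thinned to 2000 UMIs before summing, 13 of 29 tested members passed, 12 higher and 1 lower, where 40.1% of 2188 genes were called. The members' median change was then 0.405, and Ifit1 did not pass (adjusted p = 0.067). Macrophage markers summed to 2799 to 4776 CPM in monocytes, and monocyte markers to 810 to 1226 CPM in macrophages, and their part in the result was not tested.
Ifnar1 (0.35), Jak1 (0.63), Jak2 (1.06), Irf1 (1.07), Irf2 (0.74) and Tmem173 (0.27) were higher in monocytes, Ifnar2 (-0.30) was lower, and Irf9 (-0.07 ± 0.12, adjusted p = 0.652) did not pass. Samhd1 (1.45), Isg20 (1.14), Ifi203 (1.66), Ifi209 (1.54) and Gbp5 (1.40) were higher, and Tlr3 (-1.07), Lgals3bp (-1.003) and Ciita (-0.96) lower. Of 26 further interferon-stimulated genes 19 were higher and 1 lower.

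**Figure D5:**
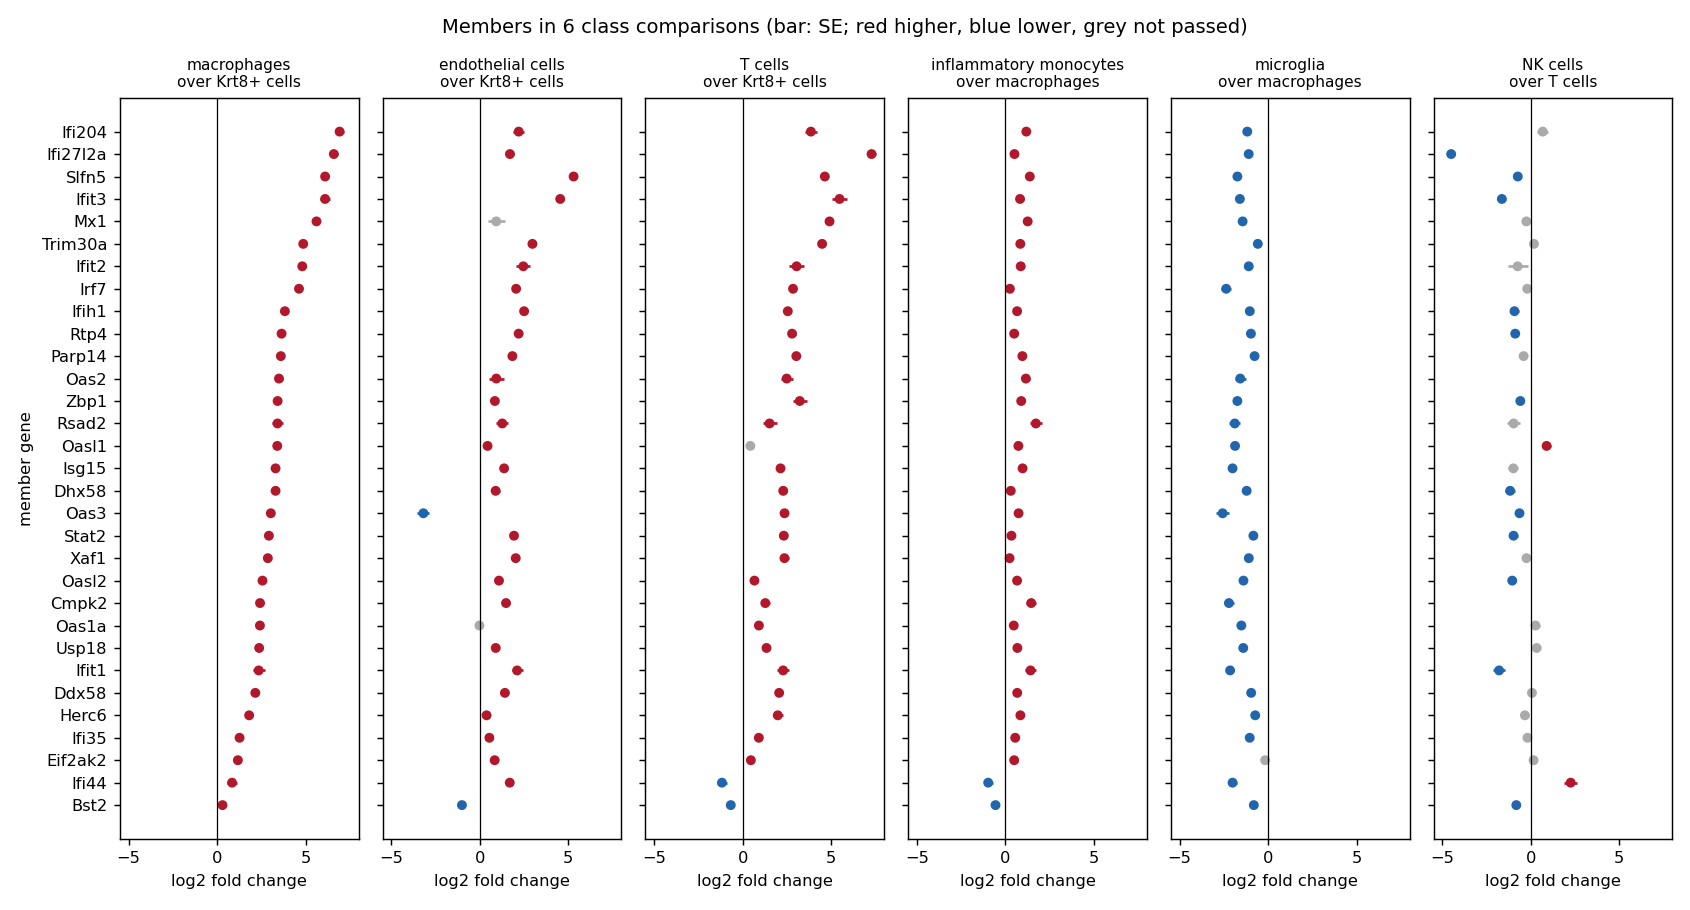
Log2 fold change (x axis, first class over second, bar for the SE) of each member (rows) in the 6 comparisons, red where higher, blue where lower and grey where the adjusted p was not under 0.05. Bst2 and Ifi44 sit left of 0 in T cells over Krt8+ cells (-0.67 and -1.17) and in monocytes over macrophages (-0.56 and -0.97), and members with no point were not tested.

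In microglia against macrophages, 30 of 31 members were lower in microglia and none was higher (25.7% of 8375 genes called lower, 24.7% higher and 50.4% in all, median change of members -1.40 against 0.016 for all genes), in the 4 samples with enough of both. Oas3 had 6.80, 25.5, 9.27 and 49.3 CPM in microglia, against 127, 118, 77.0 and 122 CPM in macrophages of samples 5, 6, 7 and 8. Its change was -2.57 ± 0.38 (adjusted p = 0.0027), with no overlap. Irf7 had 83.9, 231, 106 and 199 CPM in microglia, against 774, 671, 541 and 713 CPM in macrophages (-2.37 ± 0.27, adjusted p = 0.000506).
Cmpk2 (-2.22 ± 0.28) and Ifit1 (-2.15 ± 0.21) were the next largest, lower in microglia in 4 of 4 samples without overlap. Eif2ak2 was the member that did not pass, with 92.9, 80.4, 70.2 and 116 CPM in microglia, against 84.8, 89.0, 94.2 and 88.1 CPM in macrophages (-0.17 ± 0.14, adjusted p = 0.331). In contrast, 5 of 7 tested sensors outside the members were higher in microglia and none lower. Among them were Tlr3 (1.36 ± 0.19) and Aim2 (1.15 ± 0.13), each in 4 of 4 samples. The RNA sensor Ifih1 (-1.04) and the RNA helicase Dhx58 (-1.21), which are members, were lower in microglia.
Irf9 (-0.42), Ifnar1 (-1.01), Ifnar2 (-0.40) and Jak2 (-1.50) were lower in microglia. Ifngr1 (0.57), Jak1 (0.41), Stat3 (0.68), Irf3 (0.65) and Socs3 (0.79) were higher. Of 26 further genes 21 were lower and none higher, led by Ifi203 (-3.67) and Slfn1 (-3.65). Irf2 (-0.48), Samhd1 (-2.13), Isg20 (-2.03), Ciita (-3.43) and Cxcl9 (-3.32) were lower, and Ifnb1 (0.22 ± 0.73, adjusted p = 0.827) did not pass.

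Between the lymphoid classes, 12 of 29 tested members were lower in NK cells than in T cells, 2 were higher and 15 did not pass (9.39% of 5508 genes called lower, 9.77% higher and 19.2% in all, median change of members -0.596 against 0.0126). Ifi27l2a had 41.7, 152 and 367 CPM in NK cells, against 3097, 3919 and 5968 CPM in T cells, a change of -4.51 ± 0.23 (adjusted p = 4.85e-06). Ifit1 (-1.80 ± 0.34, adjusted p = 0.00797) and Ifit3 (-1.64 ± 0.25, 0.000747) were lower in 6 of 6 samples without overlap, and Dhx58, the RNA helicase LGP2, by -1.17 ± 0.28 (0.00409) in 5 of 6.
Ifi44 was higher in NK cells, with 27.4, 54.0 and 104 CPM, against 0, 10.3 and 27.4 CPM in T cells (2.25 ± 0.36, adjusted p = 0.000686). Oasl1, which limits Irf7 translation in the mouse, was higher by 0.89 ± 0.26 (adjusted p = 0.0173, and 0.126 without sample 7). Leaving out sample 5 or sample 8 left 9 of 26 tested members passing, where 15.8% of all genes were called. With all samples it was 14 of 29, where 19.2% were called, and leaving out sample 3 left 18 of 30, where 19.2% were called.
Irf8 (3.69), Stat3 (0.64), Il10rb (0.89), Tyk2 (0.83), Socs3 (0.56) and Lgals3bp (0.53) were higher in NK cells. Jak2 (-0.83), Samhd1 (-1.20), Isg20 (-1.12), Slfn1 (-3.74), Ifit1bl1 (-3.29) and Iigp1 (-2.15) were lower. Ifnar1 (-0.11), Ifnar2 (0.24), Irf9 (-0.35) and Ifng (0.16) did not pass.

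Whether the summed level moved together between classes across hashtag samples was examined for 3 pairs. Krt8+ and endothelial cells gave Pearson's r = 0.799 over 7 samples (exact permutation p = 0.0417, two-sided, adjusted 0.125) and Spearman's rho = 0.679 (exact p = 0.11, adjusted 0.165), with r = 0.766 without the samples 5 and 6, which lay farthest from the median. Krt8+ cells with macrophages gave r = 0.498 over 6 samples (exact permutation p = 0.301, adjusted 0.301) and rho = 0.6 (exact p = 0.242, adjusted 0.242), with r = 0.816 without samples 5 and 6. Macrophages with T cells gave r = -0.685 over 6 samples (exact permutation p = 0.154, adjusted 0.231) and rho = -0.829 (exact p = 0.0583, adjusted 0.165), with r = -0.18 without samples 6 and 8. No pair passed after adjustment over the 3.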

How the data were processed

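The deposited values are whole-number UMI counts per feature and barcode. Per the submitters' processing notes, Cell Ranger 3.1, Seurat 3.1.1 and build mm10 were used. Here, a barcode had to show 500 or more genes, with mitochondrial UMIs no higher than 15%, and hashtags were assigned by HTODemux (Seurat 5.3.0, quantile 0.99). A cell took the class whose marker UMIs were the highest multiple of that class's floor, if every other class stayed under 0.5 of it. Counts summed per class and hashtag sample (at least 20 cells) were tested with edgeR 4.0.16 in R 4.3.3 (TMM, filterByExpr, quasi-likelihood, hashtag sample as a block, Benjamini-Hochberg over all genes). The block rests on both classes coming from the same hashtagged suspension, and deviations correlated at -0.089 to 0.343. Alternatives were DESeq2 1.42.0, other scaling, filters, gates, hashtag calls, thinning and left-out samples. Named members were the 5 with the highest level in each of Krt8+ cells, macrophages and endothelial cells, the 4 largest changes each way per comparison and called exceptions, with 2 pathway genes each way per list, and Irf9, Ifnar1, Ifnar2, Ifnb1 and Ifng. Members, lists and gates were chosen with earlier results of these data known. Ifit3, Oas1a, Ifi204, Trim30a and Ifi27l2a have close copies, so their counts are uncertain. A pathway gene that the rule names is not reported here. Scripts were tested on simulated data.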

Additional observations from a re-analysis of the deposited data

Results flagged for a closer look

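Of 77 groups of 4 to 10 hashtag samples checked, 10 held a sample far from the others by Dixon's 95% criterion, where chance gives about 1 in 20. NK cells of hashtag sample 3, of which there were 22, stood high in 5 of these. Their summed level was 5057.9 CPM (others 2451.4 to 3239.7), their share of responding cells 68.18% (others 43.59 to 51.75%), Isg15 758.3 CPM (others 219.1 to 367.3), Eif2ak2 125.2 CPM (others 61.44 to 81.39) and Slfn5 236.5 CPM (others 57.89 to 100.1). Monocytes of sample 5 (151 cells) stood low for Eif2ak2 at 86.89 CPM (others 114.7 to 129.7) and Ifit1 at 307.3 CPM (others 439.6 to 498.7). Macrophages of sample 3 (80 cells) stood high for Eif2ak2 at 114.6 CPM (others 84.83 to 94.24). Microglia of sample 8 (56 cells) stood high for Ifi27l2a at 1663.2 CPM (others 969.7 to 1058.4). T cells of sample 2 (33 cells) stood low for Ifi204 at 12.38 CPM (others 65.42 to 92.38).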

How the results depend on the processing

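Of 450 repeats of 32 single-gene results, 447 kept their direction and side of the threshold, 3 lost significance (Bst2 in T cells against Krt8+ cells, Ifit1 in monocytes against macrophages and Oasl1 in NK cells against T cells) and 0 reversed. Of 191 repeats of 23 summary results, 132 kept theirs. Members called numbered 29 to 31 in macrophages, 21 to 29 in endothelial cells and 29 to 31 in T cells, each against Krt8+ cells, over all alternatives, and 27 to 30 in microglia against macrophages. The percent of all genes called ran from 54.9 to 81.9, 50.3 to 74.7, 52.2 to 78.2 and 30.1 to 55.5 in the same order. The 21 in endothelial cells were of 22 tested, with cells thinned to 2000 UMIs. Monocytes against macrophages gave 13 with cells thinned to 2000 UMIs (29 tested, 40.1% of all genes called, median change 0.405). Otherwise the number was 25 to 31 (24 to 51.5% of all genes called), and the cause was not tested. NK cells against T cells gave 9 to 18 without 1 sample (15.3 to 20.1% of all genes called) and 20 with no filter (11%). With no replicate block the counts were 31, 25, 30, 28, 30 and 15 in the 6 comparisons in the order of the report, against 31, 29, 30, 31, 30 and 14. The percent of all genes called was then 80.5, 74.7, 78.2, 43.9, 50.9 and 19.6, against 78.9, 72.4, 75.7, 46.7, 50.4 and 19.2. With library size in place of TMM the median of all genes moved to -0.468 in macrophages over Krt8+ cells (-0.165 with TMM), 0.0379 in endothelial cells (-0.0706), -0.214 in monocytes over macrophages (-0.0304) and 0.19 in microglia (0.016), and the members' medians were 3.01, 1.53, 0.551 and -1.22. The share of calls that were higher was then 30.3% for monocytes (50.7% with TMM) and 62% for microglia (49%).

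For the summed levels, r of Krt8+ with endothelial cells was 0.495 without the member with the highest level and 0.728 to 0.853 without 1 sample, with an unadjusted p above 0.05 without sample 2, 3, 6, 7 or 8. For macrophages with T cells, r was -0.845 with the mean of per-cell CPM, 0.0664 with the stricter gate and -0.943 to -0.39 without 1 sample. The cause was not tested.

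Responding shares follow the number of UMIs kept. At 1000 UMIs they were 85.8% in monocytes, 84.1% in macrophages, 37.2% in microglia, 58.6% in T cells, 32.8% in NK cells, 41.6% in endothelial cells and 14.8% in Krt8+ cells. At 4000 UMIs they were 99.3% in macrophages, 79.7% in microglia, 91.1% in T cells, 75% in NK cells, 90.6% in endothelial cells and 41.4% in Krt8+ cells, and unthinned 100%, 86.7%, 96.6%, 78.3%, 96.2% and 99.4% in the same 6 classes. With at least 2 members needed they were 90.4% in T cells, 67.5% in NK cells, 87% in endothelial cells and 46.7% in Krt8+ cells. With at least 5 they were 85.6% in monocytes, 86.6% in macrophages, 34% in microglia, 57.4% in T cells, 30.3% in NK cells, 36.2% in endothelial cells and 11.5% in Krt8+ cells. Without Ifi27l2a and Bst2 they were 87.5% in macrophages, 63.2% in T cells, 41.6% in NK cells, 60.6% in endothelial cells and 17.4% in Krt8+ cells. The median correlation between members at 4000 UMIs was 0.27 in monocytes, 0.217 in macrophages, 0.213 in microglia, 0.276 in T cells and 0.124 in endothelial cells. With no thinning, chosen after seeing the data, it was 0.4, 0.411, 0.323, 0.29 and 0.2 in these classes, 0.279 in NK cells and 0.387 in Krt8+ cells.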
